A study of Rattus norvegicus with 8 samples.

Results

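The serotonin, adrenergic, acetylcholine and histamine receptors were examined in the hypothalamus of rat mothers. Members were the non-control probes whose array gene name begins with Htr, Adra, Adrb, Chrm, Chrna, Chrnb or Hrh followed by a digit. The rule found 45 genes on 52 probes, out of 26269 gene names on 30367 probes. All 45 rat RefSeq genes (assembly GRCr8) whose symbols match the pattern were on the array. Left out by the same rule were the muscle nicotinic subunits Chrnd, Chrne and Chrng and an Adra1b probe listed under an accession.

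The exposure was TCDD, the best studied dioxin, which binds the aryl hydrocarbon receptor. The 4 TCDD arrays and the 4 control arrays carried hypothalamic RNA of lactating Wistar dams on postpartum day 7. The dose, the route, the time of exposure, the dams' age and what the control dams received are not stated in the labels. The labels do not say whether an array held 1 dam's RNA, so p-values measure the spread between these samples. Each group sat on 1 slide, so slide and group cannot be told apart. Replicate numbers follow the position on the slide.

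Serotonin and noradrenaline reach the hypothalamus through axons of brainstem neurons, whereas histamine is made in the hypothalamus itself, in the tuberomammillary nucleus. Acetylcholine acts through muscarinic receptors, which couple to G proteins, and through nicotinic receptors, which are ion channels built of subunits. All the serotonin, adrenergic and histamine receptors couple to G proteins except those formed by Htr3 subunits, which are channels. In this tissue these systems are known for roles in arousal, feeding, body temperature and the release of pituitary hormones.

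All 15 hypothalamus markers were measured on enough arrays to be tested. Between 69.3% and 73.7% of the non-control spots were well above background on an array, and no spot was saturated. The 75th percentile of an array's processed signal lay between 756 and 1077. A log2 signal below is relative to this percentile, so 0 is its level on that array. To be tested, a gene needed a probe called well above background by the scanner software on every array of the TCDD group, of the control group or of both.

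A gene was read through probes of 60 bases, and probes at different places of a gene were not always detected alike. The Chrm2 probes, shown because the same gene gave opposite detection, cover the start codon, in capitals in the first sequence, and a stretch 1355 bases downstream. The first lies at chr4:63915250-63915309 and the second at chr4:63916605-63916664, both on the plus strand of rn4. Exon and UTR limits are not given, since no rn4 annotation was used.
Chrm2 upstream: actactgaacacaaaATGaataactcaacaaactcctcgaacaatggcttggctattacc
Chrm2 downstream: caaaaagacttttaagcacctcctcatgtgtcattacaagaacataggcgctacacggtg
The upstream probe was well above background on 1 of 8 arrays and the downstream probe on all 8.

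Of the 52 probes, 6 end in a stop codon that closes an open reading frame of the whole probe, and these are shown because they share that position and differ in detection. Capitals mark the stop codon.
Htr1a: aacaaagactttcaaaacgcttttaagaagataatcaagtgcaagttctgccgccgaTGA
Hrh2: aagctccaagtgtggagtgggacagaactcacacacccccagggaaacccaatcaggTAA
Adrb1: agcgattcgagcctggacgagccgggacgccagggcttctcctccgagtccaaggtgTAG
Adra2c: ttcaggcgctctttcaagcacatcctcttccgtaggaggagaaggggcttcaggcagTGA
Hrh1: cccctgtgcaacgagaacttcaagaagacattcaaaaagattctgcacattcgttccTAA
Chrna7: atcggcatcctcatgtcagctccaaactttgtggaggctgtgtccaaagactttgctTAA
They lie on rn4 at chr2:36435727-36435786 (Htr1a, plus strand), chr17:16497967-16498026 (Hrh2, minus), chr1:263026996-263027055 (Adrb1, plus), chr14:81108144-81108203 (Adra2c, minus), chr4:150432640-150432699 (Hrh1, plus) and chr1:117587580-117587639 (Chrna7, minus). The Htr1a probe was well above background on 2 arrays, the Hrh2 probe on 3, the Adrb1 probe on 7 and the other three on all 8.

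Of the 45 genes, 25 were well above background on all 8 arrays, 10 on some and 10 on none. By probe, 28 of 52 receptor probes (53.8%) were above background on all 8 arrays, and 18299 of all 30367 probes (60.3%) were. On no array were 12 receptor probes (23.1%), against 8413 of all probes (27.7%). No receptor was above background on all arrays of one group and on none of the other.

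**Figure D1:**
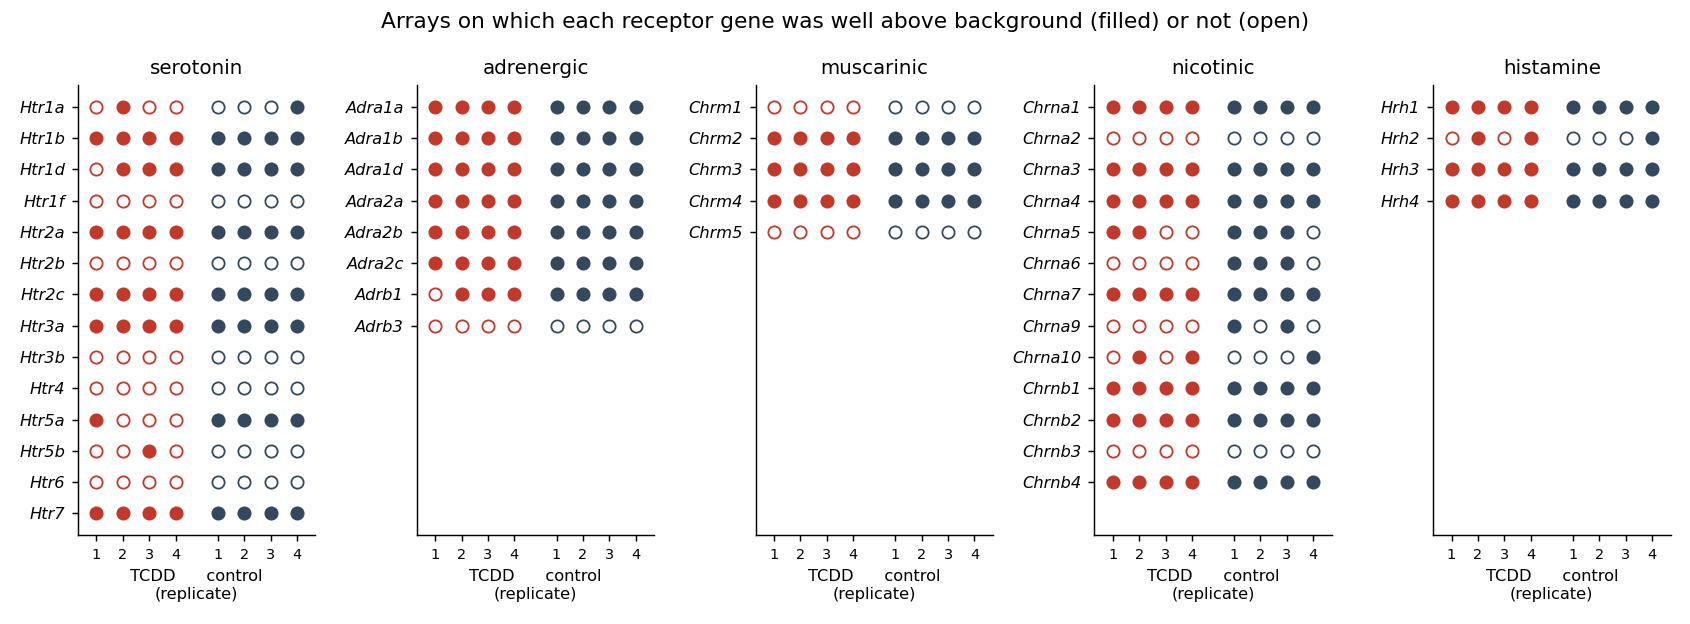
Each row is a receptor gene and each circle an array, with TCDD replicates in red on the left and control replicates in dark blue on the right. Filled circles mark arrays on which the gene's brightest probe was well above background. The muscarinic panel has 3 of 5 genes filled throughout and the serotonin panel 5 of 14.

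Among the 14 serotonin receptor genes, 5 were above background on all arrays. These were Htr1b, a Gi-coupled terminal autoreceptor, Htr2a and Htr2c, which couple to Gq, the channel subunit Htr3a and the Gs-coupled Htr7. Htr1a, the Gi-coupled autoreceptor of serotonin neurons that is also postsynaptic, was above background on 1 TCDD and 1 control array. Htr1d was so on 3 TCDD and 4 control arrays, Htr5a on 1 TCDD and 4 control arrays and Htr5b on 1 TCDD array. The Gs-coupled Htr4 and Htr6, Htr1f, Htr2b and the accessory channel subunit Htr3b were not above background on any array.

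Among the adrenergic receptor genes, the Gq-coupled Adra1a, Adra1b and Adra1d and the Gi-coupled Adra2a, Adra2b and Adra2c were above background on all arrays. Adrb1, which is Gs-coupled, was so on 3 TCDD and 4 control arrays. Adrb3, the receptor best known from fat, was above background on none. All 4 histamine receptors were seen on at least 1 array: Hrh1, Hrh3 and Hrh4 on all 8, and the Gs-coupled Hrh2 on 2 TCDD arrays and 1 control array.

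Of the 5 muscarinic receptors, Chrm2, Chrm3 and Chrm4 were above background on all arrays, and Chrm1 and Chrm5 on none. Of the 13 nicotinic subunits, Chrna1, Chrna3, Chrna4, Chrna7, Chrnb1, Chrnb2 and Chrnb4 were above background on all arrays. Chrna4 and Chrnb2 are the subunits of the main high-affinity brain receptor, Chrna7 forms a receptor of its own, Chrna3 and Chrnb4 are the ganglionic pair, and Chrna1 and Chrnb1 are known from muscle. Chrna2 and Chrnb3 were above background on none. Chrna5, Chrna6, Chrna9 and Chrna10 were so on some arrays. Chrna1 and Hrh4, known from other tissues, were each read through 1 probe, and binding of these probes to other transcripts was not tested.

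For 7 genes the array carries a pair of probes, and for some of them only 1 of the pair was detected on all arrays. The downstream probe represents 5 of them, the upstream probe 1 (Htr2a), and Htr4 had neither probe above background. The Chrna7 probes lie 53197 bases apart, and the upstream one was above background on 0 arrays and the downstream one on 8. The upstream Htr7 probe, 10300 bases away, was so on 5 arrays and the downstream one on 8. Where both probes of a gene were tested, the log2 fold changes of the less bright probe were -0.08 ± 0.118 for Hrh3, -0.02 ± 0.0967 for Htr2a and -0.26 ± 0.149 for Htr2c (± SE).

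No receptor gene passed the test between TCDD and control dams (limma, Benjamini-Hochberg over 16571 genes, adjusted p threshold 0.05). The smallest adjusted p among the 28 tested receptors was 0.225. Of all genes tested, 4 passed (0.0241%). At an unadjusted p under 0.05 stood 4 of the 28 receptors (14.3%), and 1786 of all genes did (10.8%), a share near that background. By direction, 2 receptors were higher in TCDD dams, with 7.95% of all genes, and 2 were lower, with 2.82% of all genes. The median log2 fold change was 0.03 for the tested receptors and 0.0041 for all genes. Its median size regardless of sign was 0.079 for the receptors and 0.074 for all genes. In bulk tissue, fewer cells of a type and less RNA per cell cannot be told apart.

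The intervals give what 4 against 4 arrays could resolve. For 21 of the 28 receptors the 95% confidence interval of the log2 fold change lay within 0.5 of zero on either side, and for 27 within 1. The exception was Htr5a, most of whose TCDD values were background readings. The median within-group SD was 0.20 for the tested receptors and 0.121 for all genes.

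**Figure D2:**
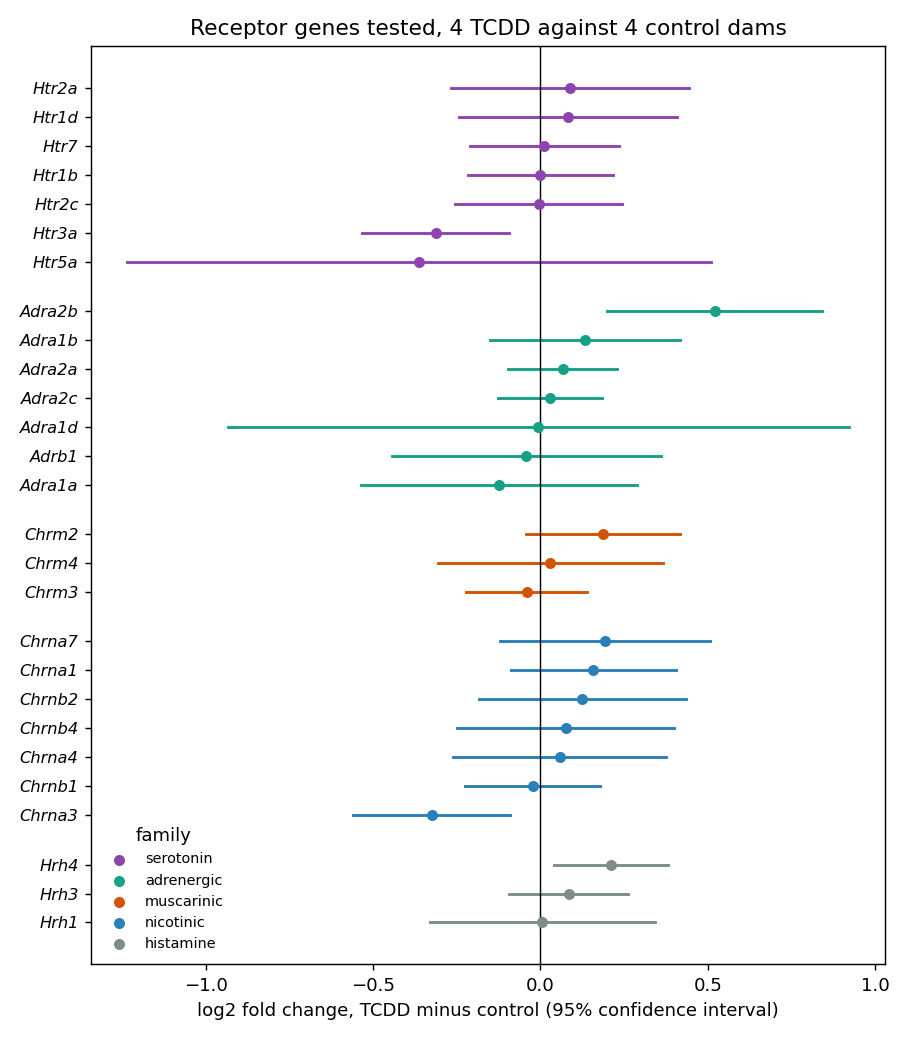
Points are log2 fold changes, TCDD minus control, of 27 of the 28 tested receptor genes, grouped by family, and bars are 95% confidence intervals from limma (4 arrays per group). The intervals of Htr3a, Adra2b, Chrna3 and Hrh4 do not cross 0, and those of Htr5a and Adra1d are the widest.

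Adra2b encodes the alpha-2B adrenergic receptor, a Gi-coupled subtype whose brain mRNA is best known from the thalamus. Its log2 signal was -2.75, -2.69, -2.53 and -2.44 in the TCDD dams, against -3.49, -3.20, -2.90 and -2.90 in the control dams. The lowest TCDD array was above the highest control array. The log2 fold change was 0.52 ± 0.140 (SE; 95% interval 0.20 to 0.84; 1.44-fold; limma adjusted p = 0.225). Adra2b was the only tested receptor whose groups did not overlap, while 1168 of the 16571 genes did not (7.05%). The Adra2b probe lies at chr3:114869275-114869334 on the plus strand of rn4.

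Adra1d, the alpha-1D receptor, was picked after its values were seen, for its spread. Its log2 signal was -4.76, -3.43, -3.26 and -3.27 in the TCDD dams and -3.99, -2.87, -3.59 and -4.25 in the control dams. The groups overlapped throughout, with a log2 fold change of -0.0061 ± 0.404 (SE). The array carries 10 spots of this probe, and their SD within an array was 0.047 to 0.167. The SD between arrays was 0.72 in TCDD and 0.60 in control dams.

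Markers of the thalamus, which borders the hypothalamus, were set beside these receptors. Of 10 listed thalamus markers 9 were tested, all 9 had a positive log2 fold change (median 0.28), and 0 were at an unadjusted p under 0.05 in limma (smallest adjusted p 0.626). Their summed linear signal, in units of the 75th percentile, spanned 2.96 to 4.86 in TCDD and 2.05 to 3.60 in control dams, and none of the 10 was below background on every array. The markers did not share one order over the arrays. However, all 9 were above their own mean over all arrays on TCDD replicate 3 and below it on control replicate 4. TCDD replicate 1, the lowest TCDD array for Adra1d, was the lowest TCDD array for 5 of the 9 markers and the highest for 1 (Rora). Control replicate 4, the lowest control array for Adra1d, was the lowest control array for 5 of the 9 and the highest for 0. For Adra2b, TCDD replicate 1 was also the lowest TCDD array. Control replicates 3 and 4 were its highest control arrays, nearly equal at -2.903 and -2.902. The lowest control array for Adra2b was replicate 1, which was the lowest for 2 of the 9 markers and the highest for 2. The part of thalamic tissue in the Adra2b and Adra1d values was not tested.

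**Figure D3:**
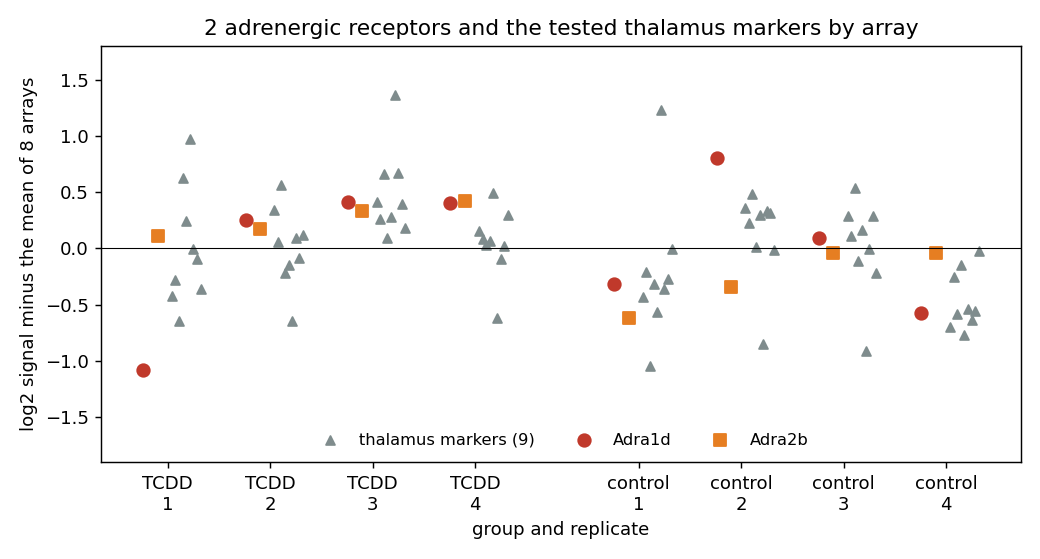
The vertical axis is the log2 signal minus the gene's own mean over 8 arrays, and the horizontal axis names the array. Grey triangles are the 9 tested thalamus markers, red circles Adra1d and orange squares Adra2b. The markers scatter on both sides of 0 on most arrays, but all 9 are above 0 on TCDD replicate 3 and below it on control replicate 4. For Adra2b all 4 TCDD points are above 0 and all 4 control points below it.

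The other adrenergic receptors described here gave values that overlapped between the groups. Adra1b, a Gq-coupled receptor, had log2 signals of 0.45, 0.85, 0.77 and 0.68 in TCDD dams and 0.39, 0.77, 0.71 and 0.35 in control dams (log2 fold change 0.13 ± 0.124 SE). Adra1a had -4.07, -4.78, -4.27 and -4.12 in TCDD dams and -4.11, -4.36, -4.40 and -3.86 in control dams (-0.12 ± 0.180). Both intervals included 0.

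Adra2a, the main inhibitory autoreceptor of noradrenaline neurons, had log2 signals of -4.03, -3.83, -3.90 and -3.75 in TCDD dams and -3.91, -4.04, -3.95 and -3.87 in control dams (log2 fold change 0.07 ± 0.0713 SE). Adrb1 had -5.69, -5.40, -5.10 and -5.00 in TCDD dams and -5.56, -5.16, -5.34 and -4.97 in control dams (-0.04 ± 0.175). In both cases the groups overlapped. Adra2c, an inhibitory receptor like Adra2a, had a within-group SD of 0.0899, the lowest of the 28 tested receptors, and a log2 fold change of 0.03.

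Htr3a encodes the subunit that forms the serotonin-gated channel. Its log2 signal was 0.29, 0.33, 0.34 and 0.68 in TCDD dams, against 0.78, 0.78, 0.74 and 0.60 in control dams. TCDD replicates 1 to 3 lay below every control array and TCDD replicate 4 above the lowest control. The log2 fold change was -0.31 ± 0.0957 (SE; 95% interval -0.53 to -0.093; 0.81-fold; limma adjusted p = 0.283). Its partner subunit Htr3b was not above background on any array. The Htr3a probe lies at chr8:52161175-52161234 on the minus strand of rn4.

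Htr5a, a Gi-coupled receptor, had log2 signals of -5.03, -7.11, -6.53 and -6.20 in TCDD dams and -5.82, -5.76, -5.84 and -6.01 in control dams. TCDD replicate 1 was above all control arrays and the other TCDD arrays, none of them above background, were below them. Htr5a entered the test only through the control group, and 3 of its 4 TCDD values are background readings, on which its interval in the plot of fold changes rests.

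The remaining serotonin receptors overlapped between the groups. Htr2c, a receptor known for its part in satiety, had log2 signals of 0.92, 0.71, 0.78 and 1.00 in TCDD dams and 1.07, 0.90, 0.87 and 0.60 in control dams (log2 fold change -0.0051 ± 0.109 SE). Htr2a had -4.01, -4.02, -4.14 and -3.87 in TCDD dams and -4.30, -4.26, -4.22 and -3.60 in control dams (0.09 ± 0.155). For Htr2a, all TCDD arrays exceeded control replicates 1 to 3, and control replicate 4 exceeded every TCDD array.

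Htr7 had log2 signals of -1.39, -1.70, -1.37 and -1.33 in TCDD dams and -1.39, -1.34, -1.52 and -1.59 in control dams (log2 fold change 0.01 ± 0.0971 SE). Htr1b had -5.43, -5.36, -5.48 and -5.34 in TCDD dams and -5.57, -5.51, -5.40 and -5.14 in control dams (0.00038 ± 0.0949). Htr1a, not tested, had -6.62, -5.61, -7.54 and -6.69 in TCDD dams and -5.88, -6.62, -6.17 and -5.90 in control dams. Most of these Htr1a values are background readings and have no order.

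Chrna3 encodes the alpha-3 nicotinic subunit, which pairs with beta-4 in autonomic ganglia and the medial habenula. Its log2 signal was -5.24, -5.29, -5.46 and -5.46 in TCDD dams, against -4.82, -4.97, -5.08 and -5.27 in control dams. The 3 highest values were control arrays, and control replicate 4 lay among the TCDD values. The log2 fold change was -0.32 ± 0.102 (SE; 95% interval -0.56 to -0.091; 0.80-fold; limma adjusted p = 0.292). The probe, at chr8:58572596-58572655 on the minus strand of rn4, is shown because this gene is among the 4 receptors at an unadjusted p under 0.05.
Chrna3: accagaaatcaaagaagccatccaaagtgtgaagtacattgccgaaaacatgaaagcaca
Chrna3, Chrnb4 and Chrna5 are neighbours on the chromosome. Chrnb4 had a log2 fold change of 0.08 ± 0.141 (SE), and Chrna5 was above background on only part of the arrays. Of the 8 medial habenula markers, Gpr151, Pou4f1, Slc17a7 and Chat were above background on no array, and the 4 tested ones had a median log2 fold change of -0.0081.

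**Figure D4:**
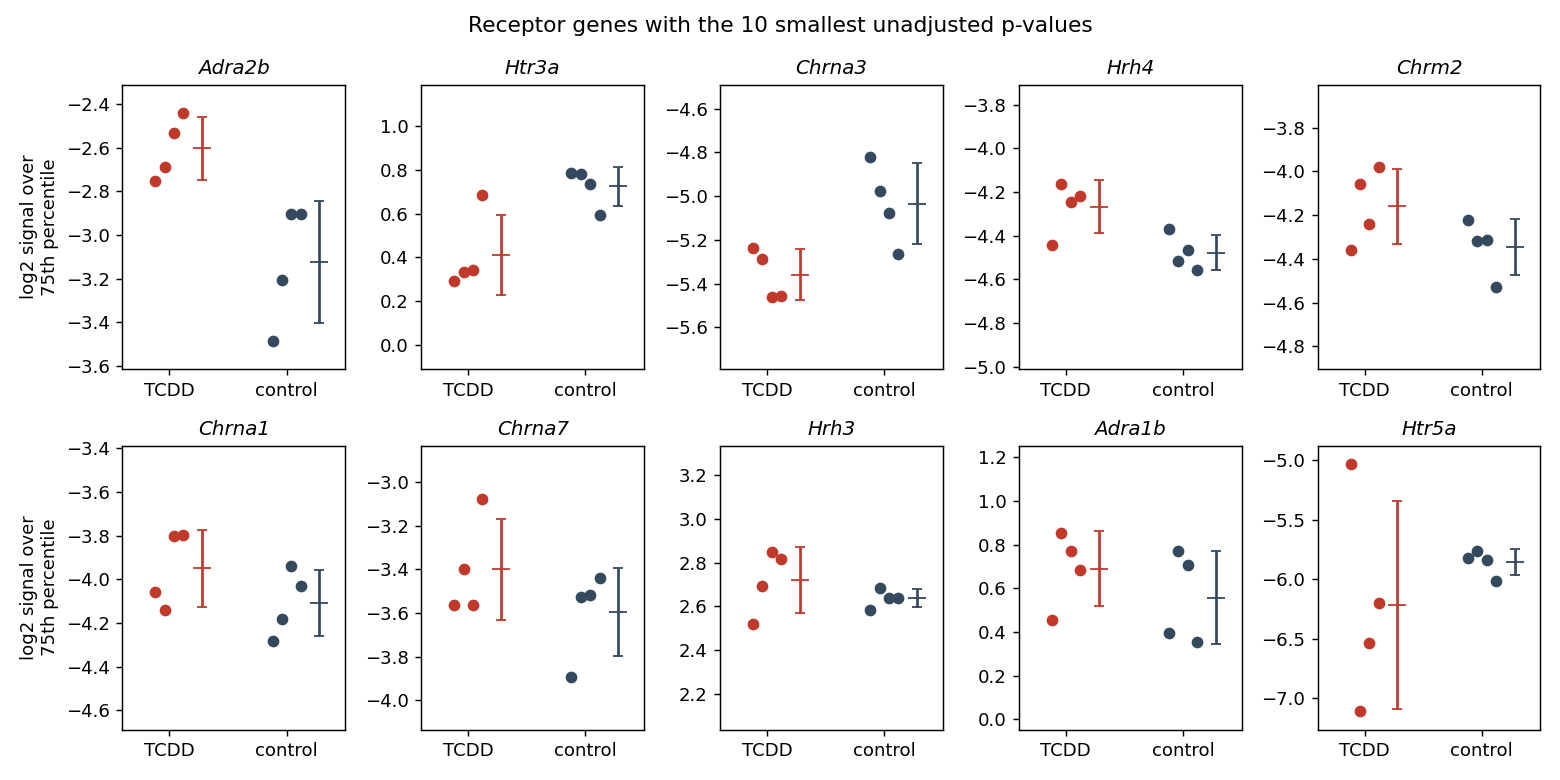
Each panel is 1 receptor gene, with the log2 signal over the array's 75th percentile on the vertical axis, TCDD arrays in red on the left and control arrays in dark blue on the right. The bars beside the points are mean ± SD (n = 4 each). Vertical ranges are equal except for Htr5a, which varied more, and only Adra2b has groups that do not overlap.

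Chrna7 had log2 signals of -3.56, -3.40, -3.57 and -3.08 in TCDD dams and -3.89, -3.53, -3.52 and -3.44 in control dams (log2 fold change 0.19 ± 0.137 SE). Chrna1 had -4.06, -4.14, -3.80 and -3.80 in TCDD dams and -4.28, -4.18, -3.94 and -4.03 in control dams (0.16 ± 0.107). Both had overlapping groups.

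Chrna4 had log2 signals of -1.56, -1.75, -1.54 and -1.64 in TCDD dams and -1.78, -1.38, -1.52 and -2.05 in control dams (log2 fold change 0.06 ± 0.138 SE). Chrnb2 had -5.23, -5.31, -4.89 and -5.28 in TCDD dams and -4.96, -5.37, -5.44 and -5.45 in control dams (0.13 ± 0.135). Neither subunit of this pair differed beyond its spread.

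Chrna5, Chrna6 and Chrna9 were picked after their values were seen, for detection that varied between arrays. Chrna5, an accessory subunit, had log2 signals of -5.18, -4.64, -7.00 and -6.71 in TCDD dams and -5.38, -3.41, -3.23 and -7.77 in control dams, and was above background on TCDD replicates 1 and 2 and control replicates 1 to 3. Chrna6, a subunit known from dopamine neurons, had -5.87, -6.07, -7.41 and -5.73 in TCDD dams and -4.46, -5.37, -4.65 and -6.58 in control dams. It was above background on control replicates 1 to 3 and on no TCDD array, and control replicate 4 lay below 3 of the TCDD readings. Neither passed the filter, and without the filter the limma adjusted p of Chrna6 was 0.756. Chrna9, known from the inner ear, was above background on 0 TCDD arrays and 2 control arrays.

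Chrm2, a Gi-coupled muscarinic receptor, had log2 signals of -4.36, -4.06, -4.24 and -3.98 in TCDD dams and -4.22, -4.32, -4.31 and -4.53 in control dams (log2 fold change 0.19 ± 0.10 SE; limma adjusted p = 0.581). The groups overlapped through TCDD replicates 1 and 3. Chrm3, a Gq-coupled receptor, had 1.01, 0.76, 0.98 and 0.92 in TCDD dams and 0.96, 0.96, 1.09 and 0.81 in control dams (-0.04 ± 0.0787). Chrm1, the main Gq-coupled muscarinic receptor of cortex, had -7.89, -8.50, -8.39 and -8.25 in TCDD dams and -6.81, -8.61, -7.45 and -8.29 in control dams, all at background.

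Hrh4 encodes the histamine receptor best known from white blood cells. Its log2 signal was -4.44, -4.16, -4.25 and -4.22 in TCDD dams, against -4.37, -4.52, -4.47 and -4.56 in control dams. Apart from TCDD replicate 1, the TCDD arrays lay above every control array. The log2 fold change was 0.21 ± 0.0742 (SE; 95% interval 0.04 to 0.38; 1.16-fold; limma adjusted p = 0.349). With normexp background correction, run with an offset of 50, it was -0.0019. Blood markers, all of them red cell genes, were set beside it: 5 of 5 had a positive log2 fold change (median 0.90). In limma 4 were at an unadjusted p under 0.05 and 0 passed the adjusted threshold. Of all genes tested, 10.8% were at such an unadjusted p, 7.95% of all genes being higher in TCDD dams. The summed signal of the markers was 187 to 342 in TCDD and 109 to 290 in control dams. For all 5 markers, control replicate 4 was above the lowest TCDD array and the other three control arrays were below it. Hrh4 itself was lowest of the 8 arrays on control replicate 4. The part of blood in the Hrh4 value was not tested. The only Hrh4 probe is rich in TG repeats, and its binding to other transcripts was not tested either.

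Hrh3, the autoreceptor of histamine neurons, had log2 signals of 2.52, 2.69, 2.85 and 2.82 in TCDD dams and 2.58, 2.68, 2.64 and 2.64 in control dams (log2 fold change 0.08 ± 0.0777 SE). TCDD replicate 1 was the lowest of the 8 arrays and the other TCDD arrays were the highest. Hrh1, the Gq-coupled receptor blocked by sedating antihistamines, had -5.20, -5.51, -5.50 and -5.25 in TCDD dams and -5.56, -5.47, -5.50 and -4.95 in control dams (0.0060 ± 0.146). Hrh2, not tested, had -6.09, -5.91, -6.83 and -5.98 in TCDD dams and -6.49, -6.77, -6.61 and -6.16 in control dams. For Hrh1 and Hrh2 the groups overlapped.

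Genes that make, store or clear the transmitters were described beside the receptors. The vesicle transporter Slc18a2, which loads serotonin, noradrenaline, dopamine and histamine into vesicles, had log2 signals of 0.39, 0.47, 0.28 and 0.36 in TCDD dams and 0.50, 0.70, 0.90 and 0.71 in control dams. Its groups did not overlap (log2 fold change -0.33 ± 0.0867 SE; limma adjusted p = 0.220). It stands on 3 of the transmitter lists. Of the serotonin list 9 of 14 genes were tested, of the noradrenaline and adrenaline list 9 of 12, of the acetylcholine list 10 of 11 and of the histamine list 5 of 7. None passed the adjusted threshold, and 1 gene of each list was at an unadjusted p under 0.05. This was Slc18a2 on 3 lists and Colq on the acetylcholine list. Of all genes tested, 10.8% were at such a p, and 7.05% had groups that did not overlap, as Slc18a2 and Colq had.

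Colq encodes the collagen tail that anchors acetylcholinesterase. It had log2 signals of -4.77, -4.95, -4.80 and -4.79 in TCDD dams and -5.33, -5.20, -5.15 and -5.26 in control dams. The groups did not overlap (log2 fold change 0.41 ± 0.0619 SE; limma adjusted p = 0.0681). Ache, the esterase itself, had a log2 fold change of 0.05 ± 0.121 and Slc18a3, the vesicular acetylcholine transporter, 0.18 ± 0.112. Hdc, which makes histamine, had 0.15 ± 0.176, and Hnmt, which inactivates it, -0.01 ± 0.0891. None of these 4 differed beyond its spread.

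Genes known from brainstem monoamine neurons, among them the transcription factors Fev and Phox2a, differed in detection. Slc6a4, Fev, Dbh and Phox2a were above background on no array, and Tph2 on 1 control array. Slc6a2, the noradrenaline transporter, was so on 3 TCDD and 4 control arrays, and Pnmt, which makes adrenaline, on all 8. Chat was above background on none. Of the 32 listed genes for G protein coupling and receptor desensitisation 30 were tested, 16 with a positive and 14 with a negative log2 fold change (median 0.03). Gnal, which encodes the G protein alpha subunit of Golf, was the only one at an unadjusted p under 0.05 (0.23 ± 0.0670 SE; limma adjusted p = 0.242). Of the 10 listed nicotinic chaperones and modulators 7 were tested, and 0 were at an unadjusted p under 0.05 in limma (smallest adjusted p 0.728). The share of all genes tested at such an unadjusted p was 10.8%.

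The aryl hydrocarbon receptor binds the core sequence GCGTG, which was searched on both strands (CACGC on the other) in the RefSeq promoters (GRCr8, 250 bases before to 50 after the gene start). It was present in 12 of the 33 receptor promoters in that table (36.4%) and in 8540 of all 27457 promoters (31.1%). Among the 4 receptors at an unadjusted p under 0.05, Adra2b, Chrna3 and Hrh4 had a promoter in the table, and no match in it. The letters are a description of these windows.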

How the data were processed

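Hypothalamic RNA of 4 TCDD and 4 control samples was hybridised to 1 one-colour Agilent array per sample. The deposited scanner files hold spot intensities that, per the file headers, were background-subtracted within each array by version 10.7.1.1 of Agilent's Feature Extraction. The authors' deposited value table also holds intensities on a linear scale. Its 8 columns share a median of 65.1 and the same values within 0.1%, as quantile normalization gives, and no label or header states its centring. It served as an alternative.

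Log2 processed signal was taken minus the array's 75th percentile over 42877 non-control spots (1377 control spots were left out). Spots of a probe were averaged. A gene was represented by its tested probe of highest mean. Groups were compared with limma 3.58.1 in R 4.3.3 (lmFit and eBayes, 2-sided, Benjamini-Hochberg over all genes tested). The test was checked on simulated data. Figures used Python 3.11.15 and matplotlib 3.10.9.

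Values per array are given for the 10 receptors of smallest p and for a set list of receptors of wide interest, and list genes by the same rule. Members, lists and tests were chosen with earlier results of these data known. Alternatives covered background correction, scaling, filter, probe choice, array weights, variance model, a block for the replicate number, and leaving out each array. Coordinates of probes come from the deposited scanner files (rn4). The values of some genes are not reported here.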

Additional observations from a re-analysis of the deposited data

Results flagged for a closer look

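Of 56 groups of 4 arrays (28 receptors in TCDD and in control dams), 8 held an array set apart from the other three by more than Dixon's 95% critical ratio. Chance alone gives about 1 such group in 20 if values are normal and independent, but all receptors share the same arrays. The share of such groups over all genes tested is not given here, so the count is a description. Adra1d was lowest on TCDD replicate 1 (ratio 0.892), Htr7 lowest on TCDD replicate 2 (0.842), Chrnb1 highest on TCDD replicate 2 (0.842) and Htr3a highest on TCDD replicate 4 (0.882). Among control arrays, Htr2a and Hrh1 were highest on replicate 4 (0.886 and 0.849), Chrnb2 highest on replicate 1 (0.852) and Htr1d highest on replicate 2 (0.845). Htr3a without TCDD replicate 4 had a log2 fold change of -0.40 (limma adjusted p = 0.142), and Htr2a without control replicate 4 had 0.25 (adjusted p = 0.217). Both arrays were chosen from these same values, so a larger fold change without them was set in advance.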

How the results depend on the processing

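No receptor passed the adjusted threshold under any of the 20 alternatives, 19 of them planned (smallest adjusted p 0.102, with array weights). Over all genes the number that passed was 4, against 20 with normexp, 27 with median scaling, 34 with a trended robust variance, 91 with array weights, and 0 with no filter or with the replicate block. It was 0 to 8 with an array left out, 8 without control replicate 3, 1 without TCDD replicate 4, 3 without TCDD replicate 1, and 0 without any other array. Receptors at an unadjusted p under 0.05 numbered 4, against 2 with normexp and 3 to 7 with an array left out. Over all genes these numbers were 1786, 1083 and 1350 to 2032. The fit lacking control replicate 4 called 7 of 30 tested receptors at such a p, beside 2032 of all genes. Chrna5 and Chrna6 are among these 7. Both failed the main filter and passed here, being above background on control replicates 1 to 3. Dropping TCDD replicate 1 gave 7 of 28 receptors, beside 1977 of all genes. Same-numbered arrays had deviations correlated at 0.227, -0.002, -0.046 and 0.102, which does not settle whether the numbers pair the samples. With the replicate block 4 receptors were at an unadjusted p under 0.05, with Chrna1 in and Hrh4 out. Over all genes 2137 were at such a p in limma with the block, against 1786 without it. The smallest adjusted p of a receptor was 0.112 with the block. Normexp was run with an offset of 50, a constant added to every signal. Such a constant by itself shrinks log2 fold changes of dim probes, but its part in the values below was not tested. Not all became smaller with normexp, since those of Htr1b and Hrh1 grew in size. With normexp, Hrh4 turned to -0.0019, Chrm2 to -0.019, Htr1b to -0.098 and Htr2a to -0.10 (log2 fold changes). Likewise Htr7 turned to -0.00074, Chrnb2 to -0.076 and Hrh1 to -0.072. With quantile normalization Htr1b was -0.063, Htr7 -0.0065 and Hrh1 -0.058, with median scaling Htr1b was -0.0058 and Hrh1 -0.00012, and with the authors' table Htr1b was -0.063, Htr7 -0.0060 and Hrh1 -0.057. With the percentile taken over probes, an alternative chosen after seeing the data, Htr1b was -0.014, Htr7 -0.0021 and Hrh1 -0.0079. With array weights Adra1a was 0.0025, Adrb1 0.042 and Chrna4 -0.042. The cause was not tested. With an array left out, Htr1b spanned -0.055 to 0.089, Htr2c -0.093 to 0.065, Htr7 -0.032 to 0.097, Adra1a -0.21 to 0.032, Adrb1 -0.14 to 0.089, Chrm3 -0.090 to 0.011, Chrna4 -0.064 to 0.16, Hrh1 -0.058 to 0.15, Htr5a -0.76 to -0.065, Chrna7 0.086 to 0.25, Hrh3 0.041 to 0.15 and Adra1b 0.066 to 0.21. Adra2b spanned 0.31 to 0.59, Htr3a -0.40 to -0.27 and Chrna3 -0.40 to -0.12 over all 20 alternatives, with adjusted p from 0.104 to 0.477, 0.142 to 0.540 and 0.102 to 0.912. The Adra2b value of 0.31 and the Chrna3 value of -0.12 were those with normexp. With the scanner software's looser call (positive and significant against background), 38 receptors, against 28, were detected on all arrays of a group.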
